A study of Schistocerca gregaria with 20 samples.

Results

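Immature pleuropodia of days 4, 5 and 6 of embryogenesis were compared with hind (T3) legs of the same days. The libraries were chosen by their tissue and age, which gave 3 pleuropodia and 3 leg libraries, or 6 of the 20 libraries of the series. The samples came from embryos of the desert locust *Schistocerca gregaria*, gregarious phase, from a long-kept colony, with no treatment in either tissue. Each library was made from whole appendages pooled from many embryos, so it can mix several cell types, blood cells among them, and a smaller share of a cell type cannot be told apart from less RNA per cell. There was 1 library per tissue and day. The 3 days stood as replicates in the tests, so the p-values measure the spread between ages as well as between samples.

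Pleuropodia are a pair of small appendages on the first abdominal segment of the embryos of many insects. They arise as limb buds in series with the legs, but they form a gland in place of a segmented leg. In locusts and grasshoppers they are known as the source of secreted enzymes that thin the cuticle around the embryo before hatching. The Hox genes abd-A and Ubx help to specify abdominal segments, and Ubx also acts outside them. Dll is needed for the outgrowth of limbs, and dac patterns the middle of a leg. These roles are known from Drosophila. On days 4 and 5 the future gland cells still divide. From day 6 their nuclei enlarge, and the cells are fully differentiated only at day 8, after the ages compared here.

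The deposited table gave RPKM, reads scaled to transcript length and to the mapped reads of the library, for 12988 transcripts. The depth that these values imply was 34486064 to 36884141 reads per library. All levels below are RPKM divided by a factor for library composition (trimmed mean of M-values), called scaled RPKM. This scaling shifted the log2 ratio of pleuropodia to legs by -0.01 at day 4, -0.10 at day 5 and 0.20 at day 6 relative to the deposited values. Fold changes over the 3 days are differences of mean log2(scaled RPKM + 0.5), which understates the change of low transcripts. Most transcripts have no gene name in the sources used here and are given by their identifier.

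The genes of appendage identity separated the labelled tissues in part. abd-A (SgreTf0002957) stood at 17.2, 8.43 and 2.49 scaled RPKM in pleuropodia of days 4, 5 and 6, against 0.128, 0.098 and 0 in legs, at least 26.2-fold higher at day 6 against a floor of 3 reads in the leg library. dac (SgreTd0002755) stood at 2.43, 3.05 and 0.303 in pleuropodia, against 30.6, 45.9 and 72.6 in legs. For both genes the tissues did not overlap, which held for 6.06% of all tested transcripts with pleuropodia on top and for 7.24% with pleuropodia below. Neither passed the test across all transcripts (limma, adjusted p = 0.263 for abd-A and 0.134 for dac). Ubx (SgreTf0014307) stood at 176, 174 and 116 in pleuropodia, against 59.1, 70.8 and 109.5 in legs, so its gap was nearly closed at day 6 (log2 fold change 0.98 ± 0.28, limma, adjusted p = 0.616). Dll (SgreTf0013577) stood at 42.2, 31.4 and 9.00 in pleuropodia, against 33.4, 30.4 and 34.9 in legs, and stood apart only at day 6 (-0.51 ± 0.55, limma, adjusted p = 0.747). Prophenoloxidase 2 (SgreTa0006966), chosen as a blood cell marker, was at 0, 0.019 and 0 in pleuropodia, against 0, 0 and 0.019 in legs. Peroxidase (SgreTa0017700), chosen for the same purpose, was at 0, 0.046 and 0.632 in pleuropodia, against 0.225, 0.158 and 0.794 in legs. The authors list both genes among those raised in secreting pleuropodia, so these levels do not measure the share of blood cells.

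The tissues drew apart day by day, and most of the movement was in the pleuropodia. The standard deviation of the log2 ratio of pleuropodia to legs over 9901 transcripts was 0.36 at day 4, 0.67 at day 5 and 1.07 at day 6. Within pleuropodia it was 0.64 between days 5 and 4 and 0.86 between days 6 and 5. Within legs it was 0.43 and 0.35 for the same steps. The day 4 pleuropodium was nearer to the leg of its own day than to the pleuropodium of the next day. Over single transcripts, the median standard deviation across the 3 days was 0.28 in pleuropodia and 0.13 in legs, and it was larger in pleuropodia for 80.8% of them.

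Which transcripts differed in mean level between the tissues, with the 3 ages pooled, was asked with limma. The fit used the 9901 transcripts that reached 1 RPKM in at least 3 of the 6 libraries. Of these, 12 (0.121%) passed at an adjusted p under 0.05, with 5 higher in pleuropodia (0.0505%) and 7 lower (0.0707%). Without adjustment, 581 transcripts (5.87%) had a p under 0.05. The count depended on single libraries: without the day 4 pleuropodium 214 transcripts passed, 11 without the day 6 pleuropodium, and 0 without the day 5 pleuropodium or without any one of the 3 leg libraries. With the day that both tissues share as a block in the fit, 0 passed, and the 12 had adjusted p-values of 0.0732 to 0.294 (limma), so none of these 12 calls holds under that pairing.

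**Figure D1:**
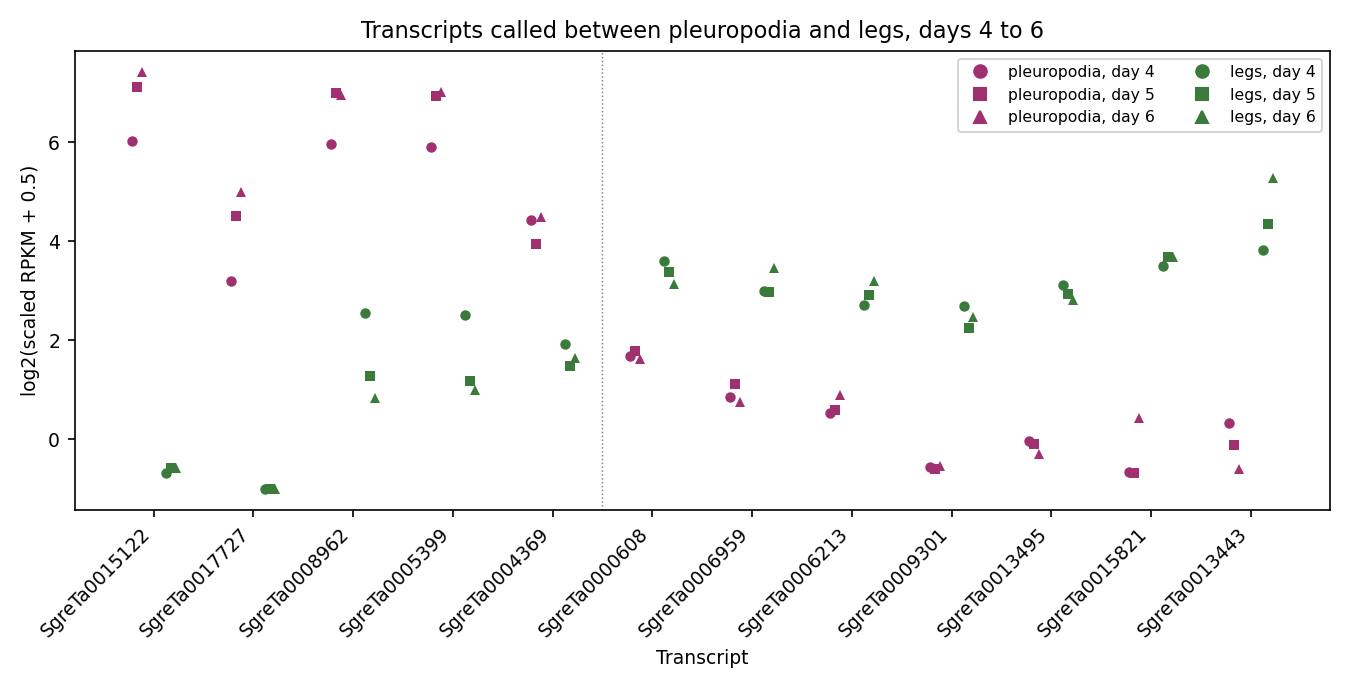
Levels of the 12 called transcripts in the 6 libraries, as log2(scaled RPKM + 0.5), with pleuropodia in purple left of legs in green and 1 marker shape per day. The 3 pleuropodia libraries lie on one side of the 3 leg libraries for each transcript, with 5 transcripts higher in pleuropodia to the left of the dotted line and 7 lower to its right. The 12 were chosen by the fit on these same libraries, which favours such a separation. Over all tested transcripts, it held for 6.06% with pleuropodia on top and for 7.24% with pleuropodia below.

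SgreTa0015122 had the widest gap of all called transcripts. It stood at 64.8, 138 and 172 scaled RPKM in pleuropodia of days 4, 5 and 6, against 0.126, 0.172 and 0.168 in legs. The leg values rest on 12, 16 and 16 reads. Its log2 fold change was 7.47 ± 0.36 (SE, n = 3 libraries each; limma, adjusted p = 0.00647), and it was already fully apart at day 4, when the log2 ratio was 9.00 (95% counting interval 8.20 to 9.95). It was the only transcript that still passed with a minimum of 10 RPKM.

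SgreTa0017727 was read in pleuropodia alone. It stood at 8.64, 22.2 and 31.6 scaled RPKM in pleuropodia, against 0 reads in each of the 3 leg libraries. Set against a floor of 3 reads over the leg libraries together, it was at least 380-fold higher in pleuropodia (limma, adjusted p = 0.0367). The leg libraries of days 7 to 12 also held no read of it.

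SgreTa0008962 and SgreTa0005399 were higher in pleuropodia by nearly the same amounts. SgreTa0008962 stood at 62.2, 128 and 124 scaled RPKM in pleuropodia, against 5.33, 1.94 and 1.27 in legs (limma, log2 fold change 5.09 ± 0.51, adjusted p = 0.0405). SgreTa0005399 stood at 59.7, 122 and 130 in pleuropodia, against 5.22, 1.75 and 1.49 in legs (5.06 ± 0.49, adjusted p = 0.0405). The ratio of their RPKM stayed between 0.905 and 1.17 in the 6 libraries, and whether they are pieces of 1 gene was not tested. SgreTa0004369 was the steadiest of the higher transcripts, at 21.0, 15 and 21.9 in pleuropodia, against 3.30, 2.29 and 2.61 in legs (2.61 ± 0.20, adjusted p = 0.0295).

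Among the called transcripts lower in pleuropodia, SgreTa0013443 differed most. It stood at 0.760, 0.425 and 0.157 scaled RPKM in pleuropodia, against 13.7, 19.97 and 38.2 in legs, lower at each later day in pleuropodia and higher at each later day in legs (log2 fold change -4.61 ± 0.43, limma, adjusted p = 0.0367). SgreTa0015821 was at 0.130, 0.120 and 0.843 in pleuropodia, against 10.9, 12.4 and 12.4 in legs (-3.94 ± 0.34, adjusted p = 0.0367). The pleuropodia values of SgreTa0015821 rest on 1, 1 and 6 reads, and its log2 ratio at day 4 had a counting interval of -11.70 to -3.87.

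The other 5 lower transcripts were low-level and even over the days in both tissues. SgreTa0013495 was at 0.470, 0.433 and 0.315 scaled RPKM in pleuropodia, against 8.13, 7.16 and 6.52 in legs (log2 fold change -3.10 ± 0.19, limma, adjusted p = 0.0126). SgreTa0009301 was at 0.174, 0.161 and 0.188 in pleuropodia, against 5.97, 4.26 and 5.05 in legs (-3.04). SgreTa0006213 (-2.28), SgreTa0006959 (-2.23) and SgreTa0000608 (-1.68) differed less, and the 3 stood at 0.935 to 2.95 in pleuropodia and at 6.05 to 11.7 in legs.

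Since the gap itself grew with age, each day's pair was also read on its own, with no test because each tissue had 1 library per day. A transcript was counted where the tissues were over 2-fold apart and the higher one had at least 10 scaled RPKM. At day 4, 40 transcripts (0.701% of 5707) were higher and 61 (1.07%) lower in pleuropodia. At day 5, 244 (4.09% of 5967) were higher and 149 (2.50%) lower. At day 6, 953 (14.6% of 6512) were higher and 454 (6.97%) lower. The balance of directions depended on the scaling: on library totals alone it was 296 higher and 116 lower at day 5, and 751 higher and 629 lower at day 6. The order of the days did not depend on it, with 102, 412 and 1380 transcripts in all. For 75 of 101, 331 of 393 and 1258 of 1407 transcripts at days 4, 5 and 6, the whole 95% counting interval lay beyond 2-fold.

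**Figure D2:**
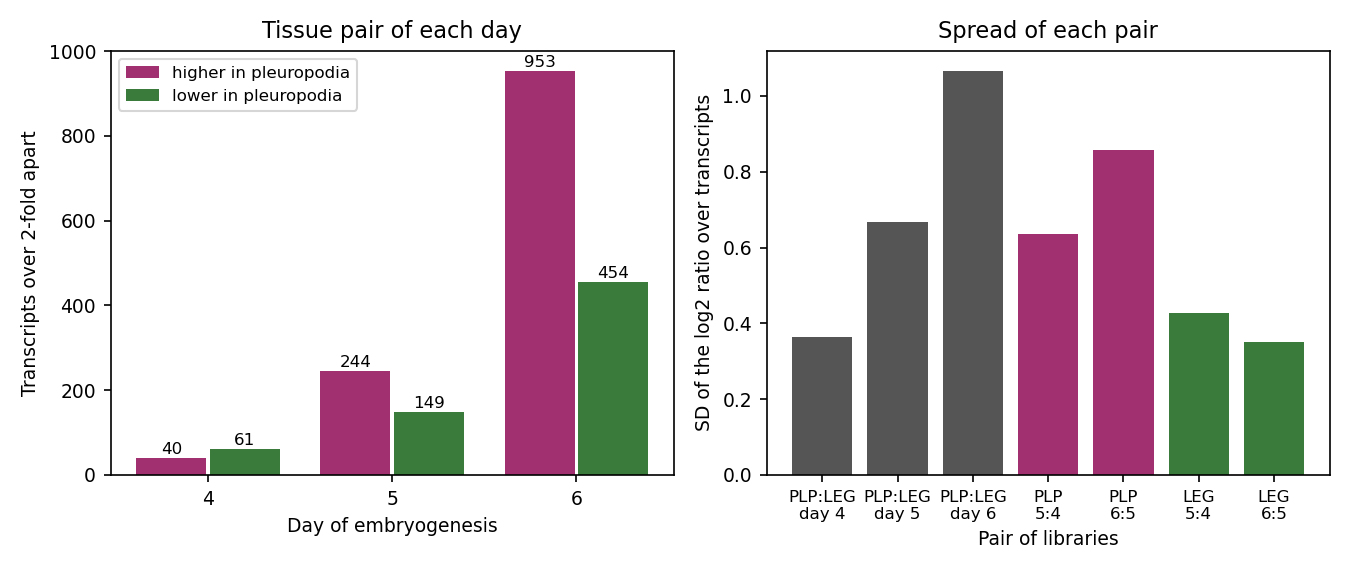
Left, number of transcripts over 2-fold higher (purple) or lower (green) in pleuropodia than in legs on each day, from 40 and 61 at day 4 to 953 and 454 at day 6. Right, standard deviation of the log2 ratio over 9901 transcripts for each pair of libraries, with tissue pairs in grey, steps between days within pleuropodia (PLP) in purple and within legs (LEG) in green; the grey bars climb from 0.36 to 1.07.

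At day 4, when both appendages are short buds, the transcripts furthest apart were already strong. Beside SgreTa0015122, SgreTa0008962 and abd-A, SgreTa0015393 stood at 16.96 scaled RPKM in the pleuropodium, against 1.44 in the leg. SgreTa0017272 stood at 49.0 in the pleuropodium, against 3.67 in the leg. Both were also higher at day 5, at 116 against 0.794 for SgreTa0015393 and 37.8 against 0.902 for SgreTa0017272, and were at 4.95 and 1.74 in the day 6 pleuropodium. The lowest ratios of day 4, beside those of SgreTa0015821, SgreTa0013443 and dac, belonged to SgreTa0013882, at 1.38 against 22.8, and SgreTa0005710, at 6.90 against 45.7. SgreTa0013882 was at 7.66 against 37.9 at day 5 and at 74.5 against 44.6 at day 6, a log2 ratio of 0.74 (counting interval 0.64 to 0.84) after -4.04 at day 4.

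At day 5 the highest ratios, beside that of SgreTa0015122, belonged to 4 transcripts under 0.1 scaled RPKM in the day 4 pleuropodium. SgreTa0017748 stood at 0.087, 69.3 and 468 scaled RPKM in pleuropodia of days 4, 5 and 6, against 0.150, 0.056 and 0.190 in legs. SgreTa0000693 stood at 0.015, 14.5 and 153 in pleuropodia, against 0.014, 0.028 and 0.055 in legs. Xaa-Pro aminopeptidase (SgreTa0017670), an enzyme that cuts the first residue from peptides with proline in the next place, stood at 0.034, 18.9 and 135 in pleuropodia, against 0.127, 0.032 and 0.421 in legs. SgreTa0009434 peaked at day 5, at 0.088, 32.7 and 18.2 in pleuropodia, against 0.011, 0.056 and 0.022 in legs. The lowest ratios of day 5, beside those of SgreTa0015821, SgreTa0013443 and SgreTd0013822, were those of SgreTa0013867, at 3.76 against 79.2, and SgreTa0008750, at 0.794 against 16.0.

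At day 6 the highest ratios were those of 5 transcripts under 1 scaled RPKM in both tissues at day 4. SgreTa0007518 stood at 0.078, 0.377 and 709 scaled RPKM in pleuropodia of days 4, 5 and 6, against 0.044, 0.025 and 0.184 in legs. SgreTa0007625 reached 494 in the day 6 pleuropodium, against 0.145 in the leg, and SgreTa0001227 reached 428 against 0.110. SgreTa0008338 reached 179 against 0.033, having been at 2.99 against 0.068 at day 5, and SgreTa0008162 reached 70.3 against 0.020. SgreTa0008162 was already apart at low level, at 0.698 against 0.069 at day 4 (10.0-fold, counting interval 4.61 to 26.0) and 2.98 against 0.122 at day 5. These 5 rest on the day 6 pleuropodium, and their level was lower afterwards: in the pleuropodia of days 7, 8 and 8-9, SgreTa0007518 was at 45.6, 5.70 and 11.8, SgreTa0001227 at 5.08, 2.43 and 7.09 and SgreTa0007625 at 0.195, 0.216 and 0.076. The lowest ratios of day 6 included those of dac and SgreTa0013443, SgreTb0011086 (0.037 against 12.7), SgreTa0014087 (0.098 against 13.6) and SgreTa0008471 (0.157 against 27.6).

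The differences of a day were shared with the next in part. Of the transcripts higher in pleuropodia, 24 were shared by days 4 and 5 (60.0% of the day 4 and 9.84% of the day 5 transcripts) and 148 by days 5 and 6 (60.7% and 15.5%). Of the lower ones, 39 were shared by days 4 and 5 (63.9% and 26.2%) and 118 by days 5 and 6 (79.2% and 26.0%). Differences seen on 1 day alone numbered 15 higher and 18 lower at day 4, 87 and 29 at day 5, and 804 and 332 at day 6.

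On all 3 days, 15 transcripts were over 2-fold higher in pleuropodia and 37 lower, or 0.274% and 0.676% of the 5474 transcripts at 10 RPKM in the higher tissue on each day. The gap was widest at day 6 for 8 of the 15 and for 33 of the 37. The median log2 gap of the 15 was 1.54, 2.71 and 3.14 at days 4, 5 and 6, and that of the 37 was 1.64, 2.48 and 4.52 in size. Of the 37, 29 were over 2-fold lower in the day 6 than in the day 4 pleuropodium, while 3 were that much lower in legs. Of the 15, 8 were over 2-fold higher in the day 6 than in the day 4 pleuropodium, and 6 were over 2-fold lower in the day 6 than in the day 4 leg.

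**Figure D3:**
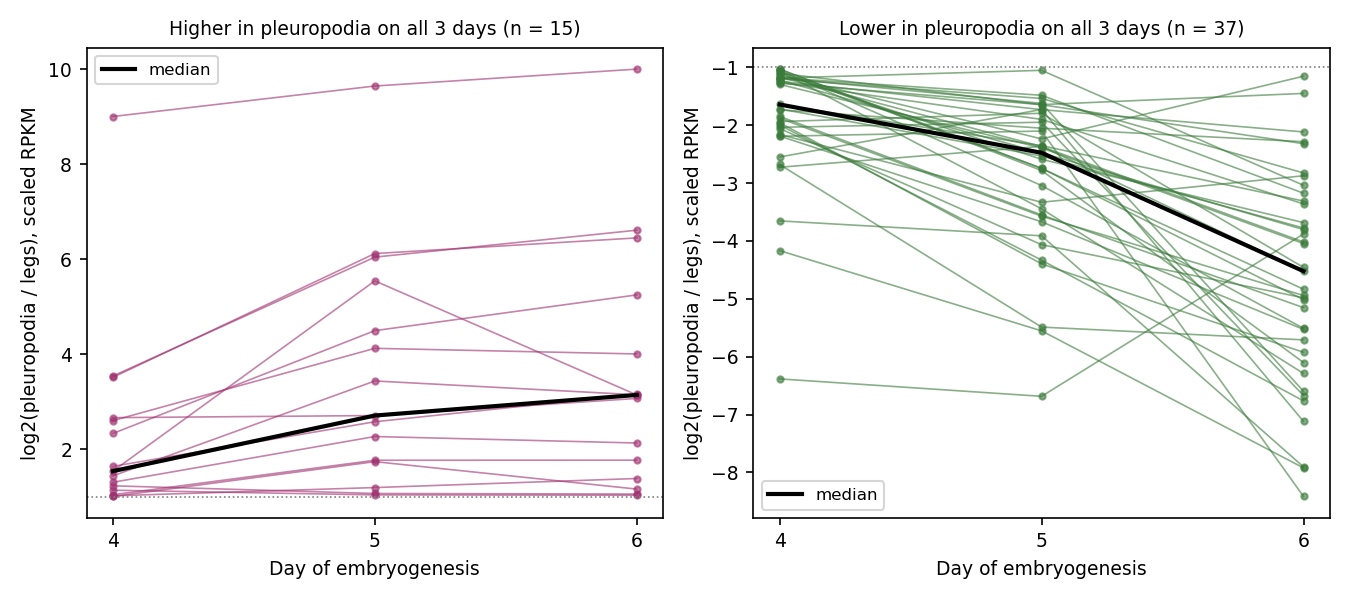
Log2 ratio of pleuropodia to legs (scaled RPKM) at days 4, 5 and 6 for the 15 transcripts over 2-fold higher (left) and the 37 over 2-fold lower (right) on each day, 1 line per transcript, with the median in black and the 2-fold limit dotted. The medians widen to 3.14 on the left and to a gap of 4.52 on the right at day 6.

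Only 4 of the 15 and 2 of the 37 were among the 12 called. SgreTa0002409 was the most abundant of the 15, at 145, 325 and 324 scaled RPKM in pleuropodia, against 28.7, 14.4 and 8.52 in legs (log2 fold change 3.98 ± 0.51, limma, adjusted p = 0.102). SgreTa0016004 was at 11.1, 33.1 and 74.7 in pleuropodia, against 1.82, 1.90 and 4.65 in legs. SgreTa0006308 had a peak at day 5, at 13.8, 72.5 and 10.6 in pleuropodia, against 4.73, 1.55 and 1.20 in legs. SgreTa0017319, SgreTa0008139 and SgreTa0002943 differed less, with log2 ratios of 1.64, 2.58 and 3.16 for SgreTa0017319, 1.44, 3.44 and 3.15 for SgreTa0008139, and 1.31, 2.27 and 2.13 for SgreTa0002943.

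Of the 37 lower transcripts, SgreTd0013822 was at 14.7, 3.46 and 4.76 scaled RPKM in pleuropodia, against 94.3, 155 and 249 in legs. SgreTa0006989 was at 18.9, 18.2 and 55.0 in pleuropodia, against 84.5, 183 and 403 in legs. SgreTa0004545 became the most abundant of them, at 63.1, 103 and 122 in pleuropodia, against 155, 540 and 2018 in legs, so that its level was higher at each later day in both tissues and more so in legs. SgreTa0005710 was at 6.90, 8.57 and 2.08 in pleuropodia, against 45.7, 44.1 and 47.8 in legs, and SgreTa0005521 at 6.70, 1.40 and 0.480, against 30.5, 17.8 and 22.2. SgreTa0013788 was at 3.74, 3.61 and 1.42 in pleuropodia, against 15.6, 60.5 and 45.04 in legs.

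Whether the gap changed with day was tested by the tissue by day term of limma. At an adjusted p under 0.05, 0 of 9901 transcripts passed, while 1926 (19.5%) had an unadjusted p under 0.05. With a minimum of 10 RPKM, 83 transcripts passed, 31 with a gap moving towards pleuropodia and 52 towards legs. Over the 9901 transcripts the median size of the log2 ratio was 0.10, 0.23 and 0.37 at days 4, 5 and 6. SgreTa0000374, chosen after its values were seen, moved much further than that. It stood at 1632, 4847 and 6171 scaled RPKM in pleuropodia of days 4, 5 and 6, against 1504, 247 and 5.80 in legs (slope of the gap 4.91 log2 units per day, limma, adjusted p = 0.068). By day 7 it was at 2.74 in the pleuropodium and 4.00 in the leg. A further 22 transcripts were over 2-fold higher in pleuropodia on one day and over 2-fold lower on another. Of these, 16 were higher at day 6, among them SgreTa0001221, at 40.1, 35.3 and 845 in pleuropodia, against 40.4, 103 and 14.7 in legs, also chosen after its values were seen.

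Genes of the later secretion were mostly at very low level in both tissues at day 4 and partly apart at day 6. Of 77 listed transcripts, abundant in the secreting pleuropodia of days 10 to 12, 35 were tested and 0 called at days 4 to 6. Over 2-fold higher in pleuropodia at 10 RPKM were 0 on day 4, 6 on day 5 and 28 on day 6. Lower were 0, 0 and 2. The higher tissue had 10 RPKM for 24, 27 and 42 of the 77. Over all transcripts at that level, 0.701%, 4.09% and 14.6% were higher on the 3 days. The median log2 ratio of the 77, on scaled RPKM + 0.5, was 0.00, 0.25 and 1.11 at days 4, 5 and 6, against -0.0045, -0.03 and -0.05 over all transcripts tested. The median level of the 77 at day 4 was 0.333 scaled RPKM in pleuropodia and 0.225 in legs, against 12.9 in each tissue over all transcripts tested. With 0.5 added, the ratio of such low levels is held near 0, so it does not show that they were equal. On library totals alone, 7 were higher at day 5 and 25 at day 6. The list was chosen on later libraries of the series for its level in pleuropodia, and its direction is no independent evidence.

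**Figure D4:**
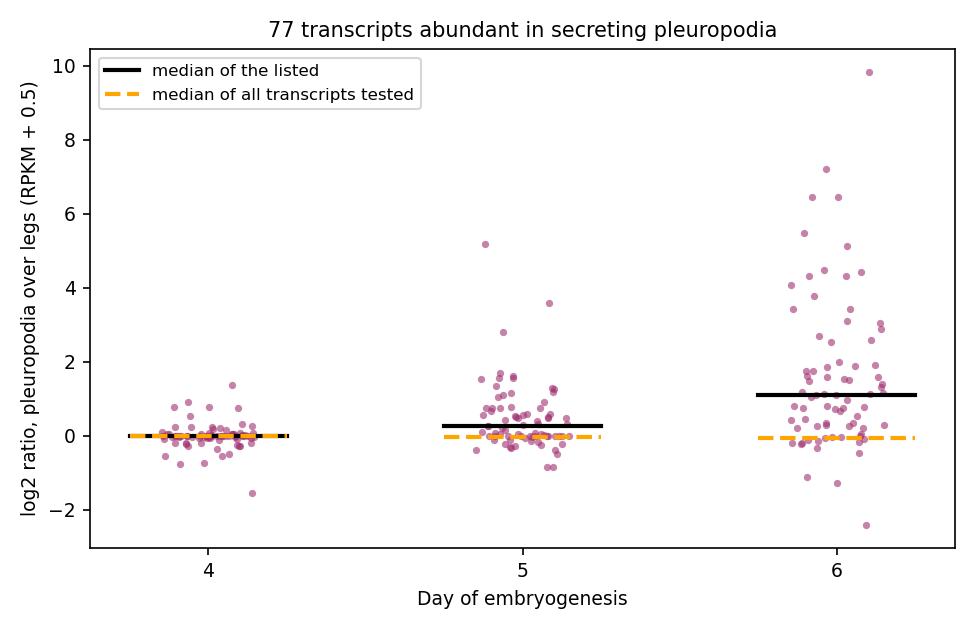
Log2 ratio of pleuropodia to legs (scaled RPKM + 0.5) on each day for the 77 listed transcripts abundant in secreting pleuropodia, 1 point per transcript, with their median in black and the median of all 9901 tested transcripts as a dashed orange line. The listed median is 0.00 at day 4 and 1.11 at day 6, while that of all transcripts stays near 0. The median level of the listed transcripts at day 4 was 0.333 scaled RPKM in pleuropodia and 0.225 in legs, which holds their ratio near 0.

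The chitin genes stayed under 10 scaled RPKM in both tissues at days 4 and 5 and were above it in the day 6 pleuropodium. Sg-nag2 (SgreTa0005600), a hexosaminidase that trims chitin fragments, stood at 0.515, 2.53 and 206 scaled RPKM in pleuropodia of days 4, 5 and 6, against 0.356, 0.520 and 1.84 in legs. The chitinase Sg-cht5-1 (SgreTa0017664) was at 0.016, 0 and 643 in pleuropodia, against 0, 0 and 0.206 in legs. All 3 listed chitin genes were over 2-fold higher at day 6 with at least 10 scaled RPKM in the pleuropodium. Over all transcripts at 10 RPKM on that day, 14.6% were higher. None of the 3 chitin genes reached 10 scaled RPKM in either tissue at day 4 or 5, so none could be counted on those days.

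Of the 16 serine proteases, only 2 reached 10 RPKM in the higher tissue at day 5 and 3 at day 6. All of these were over 2-fold higher in pleuropodia (2 at day 6 on library totals alone). Over all transcripts at 10 RPKM, 4.09% and 14.6% were higher on these days. The Snake-like protease SgreTa0000783 stood at 12.3, 20 and 34.0 scaled RPKM in pleuropodia, against 10.4, 8.71 and 4.86 in legs. The other Snake-like protease, SgreTa0017715, was at 8.19, 18.4 and 11.2 in pleuropodia, against 7.18, 6.07 and 3.61 in legs. The highest of the Easter-like proteases, SgreTa0003661, reached 3.20 in the day 6 pleuropodium, against 0.425 in the leg. Of the 3 protease inhibitors, 2 reached 10 RPKM at day 6, and both of these were over 2-fold higher. Serpin 88E-like (SgreTa0006539) stood at 2.78, 11.9 and 146 in pleuropodia, against 1.78, 6.90 and 6.86 in legs. Among 10 metallopeptidases and exopeptidases, 2 reached 10 RPKM at day 5 and 4 at day 6, and 1 and 4 of these were higher. Angiotensin-converting enzyme SgreTa0014009 stood at 28.9, 66.2 and 405 in pleuropodia, against 49.7, 45.9 and 37.4 in legs.

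None of the 4 lysozymes, which cut bacterial cell walls, reached 10 RPKM in either tissue on any day, so none could be counted as apart. Sg-LyzC-2 (SgreTa0008528) stood at 1.38, 0.848 and 2.53 scaled RPKM in pleuropodia, against 1.47, 1.94 and 3.69 in legs. The 4 lysosomal proteins were well expressed in both tissues, with LAMP (SgreTa0007774) at 241, 220 and 279 in pleuropodia, against 251, 217 and 208 in legs. One of them, the LITAF homolog (SgreTa0001486), was over 2-fold lower at day 6, at 36.9 in the pleuropodium, against 89.3 in the leg. Of the ion and water transporters, the V-ATPase proteolipid subunit (SgreTa0014626), part of a proton pump, stood at 142, 185 and 342 in pleuropodia, against 146, 141 and 159 in legs. The Na+, K+ ATPase alpha subunit (SgreTa0001469) stood at 116, 118 and 210 in pleuropodia, against 96.3, 83.7 and 83.8 in legs. Both were over 2-fold apart only at day 6, the V-ATPase subunit (2.15-fold) not on library totals alone. These were the only 2 of the 4 ion and water transporters that reached 10 RPKM in the higher tissue. Over all transcripts at 10 RPKM on day 6, 14.6% were over 2-fold higher in pleuropodia and 6.97% lower.

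The metabolic genes went both ways at day 6, when 14.6% of all transcripts at 10 RPKM were higher and 6.97% lower. 6-phosphofructo-2-kinase (SgreTa0000425), a regulator of glycolysis, stood at 45.5, 78.3 and 360 scaled RPKM in pleuropodia, against 45.5, 46.3 and 41.8 in legs. PEPCK (SgreTa0013377), which feeds glucose synthesis, stood at 144, 104 and 37.9 in pleuropodia, against 212, 189 and 205 in legs. Of the 6 lipid genes, 1 reached 10 RPKM at day 5 and 4 at day 6, and 1 and 3 of these were higher. Of the 12 matrix, membrane and other genes, 8 reached 10 RPKM at day 6 and 3 of these were higher. Vigilin (SgreTa0007081), an RNA-binding protein, stood at 145, 180 and 490 in pleuropodia, against 142, 146 and 146 in legs. None of the 3 recognition and melanization genes reached 10 RPKM on any day, so none could be counted. Of the redox and iron genes, 1 was over 2-fold higher at day 6, catalase (SgreTa0009095), at 489 against 224, which was under 2-fold on library totals alone. Of the 20 unnamed listed transcripts, 3 reached 10 RPKM at day 5 and 7 at day 6. Of these, 2 were higher at day 5 (3 on library totals alone) and 6 at day 6, against 4.09% and 14.6% of all transcripts at 10 RPKM. Among them was SgreTb0039135, at 0.333, 10.9 and 62.2 in pleuropodia, against 0.387, 0.441 and 0.919 in legs.

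Whether the early differences lasted was asked in the libraries of days 7, 8 and 8-9, which did not choose them. There 2773 of 10984 transcripts (25.2%) were higher and 2355 (21.4%) lower in pleuropodia by limma, or 2069 (18.8%) and 3433 (31.2%) on library totals alone. Of the 37 transcripts lower on days 4, 5 and 6, 34 were lower again (91.9%) and 2 were higher. Of the 15 higher ones, 9 were higher again (60.0%) and none was lower. Leaving out any library of days 7 to 9 moved the joint count of 43 only between 41 and 43. The day 8-9 libraries were made and sequenced at another centre in both tissues.

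**Figure D5:**
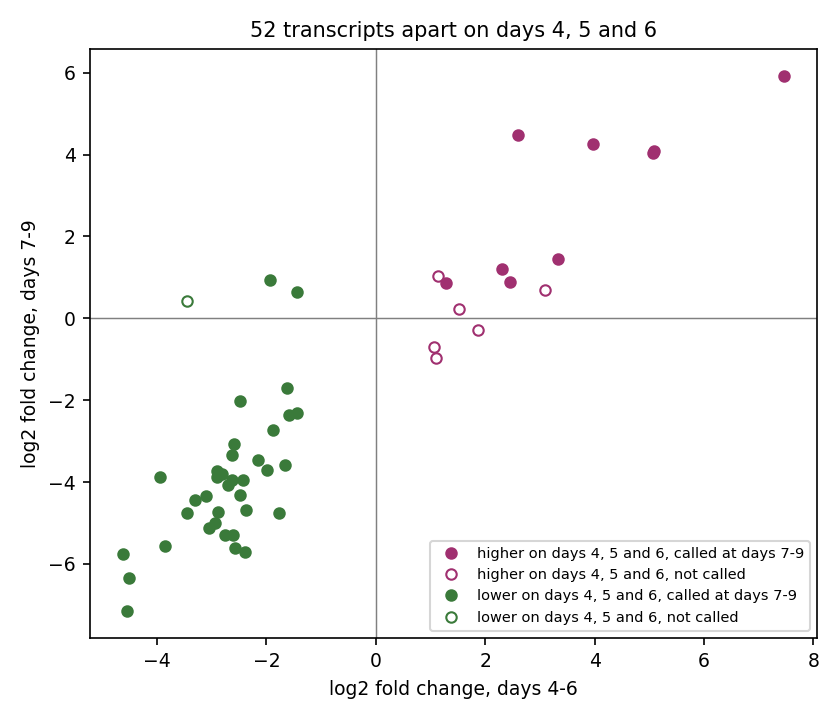
Log2 fold change of pleuropodia over legs at days 7-9 against that at days 4-6 for the 52 transcripts over 2-fold apart the same way on days 4, 5 and 6, with filled points called at days 7-9 by limma and open points not called. Of the 37 transcripts lower at days 4-6 (green), 34 lie below 0 and are filled, while 9 of the 15 higher ones (purple) lie above 0 and are filled.

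At days 10 to 12, where 45% of transcripts were called, 22.3% higher and 22.7% lower in pleuropodia, 30 of 36 tested lower transcripts were lower again (83.3%) and 2 were higher. Of the 15 higher ones, 5 were higher (33.3%) and 4 lower. Back at days 7 to 9, 25.2% of all transcripts tested were higher and 21.4% lower, or 18.8% and 31.2% on library totals alone. Of the transcripts seen higher at day 5 alone, 14 of 80 tested were higher at days 7 to 9 (17.5%) and 26 lower (32.5%), and of those at day 4 alone 2 of 11 (18.2%) were higher and 3 lower (27.3%). Of the 714 tested that were higher at day 6 alone, 448 were higher at days 7 to 9 (62.7%) and 43 lower (6.02%).

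The change of the tissue gap between days 4-6 and days 7-9 was tested by the tissue by period term over 12 libraries. It passed for 2177 of 11352 transcripts (19.2%), with 1452 moving towards pleuropodia (12.8%) and 725 towards legs (6.39%), or 1075 (9.49%) and 1060 (9.36%) on library totals alone. Of the 12 called transcripts, 2 changed. SgreTa0004369 widened its lead, to 46.7, 46.3 and 62.7 scaled RPKM in pleuropodia of days 7, 8 and 8-9, against 1.86, 2.09 and 1.52 in legs (change 1.92, adjusted p = 0.00111, limma). SgreTa0013495 turned round, to 68.8, 141 and 141 in pleuropodia, against 13.3, 28.4 and 21.3 in legs (change 5.51, adjusted p = 1.75e-05). SgreTa0015122 kept its lead, at 26.4, 26.5 and 97.1 in pleuropodia, against 0.19, 0.09 and 0.28 in legs (log2 fold change at days 7-9 5.92), and SgreTa0013443 stayed low, at 0.22, 0.14 and 0.08, against 37.7, 30.8 and 35.5.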

How the data were processed

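Legs and pleuropodia were dissected at each age and mRNA was sequenced; the libraries of days 4 to 6 came from one centre. The authors mapped the reads to a transcriptome with Bowtie2 2.2.5 in local mode (the day 8-9 reads cut to length with Trimmomatic first), removed transcripts with low values throughout and deposited a table of RPKM per transcript and library. A second deposited file holds the authors' comparison of days 10 to 12 (means, differences, probabilities) and was not used.

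Reads and lengths were recovered from the steps of the RPKM values (100% of values within 0.05 reads of a whole number), for depth, counting intervals and the TMM factors. Intervals are exact conditional 95% intervals and cover counting error only. Scaled RPKM + 0.5 was tested on the log2 scale with limma 3.58.1 (R 4.3.3, empirical Bayes with trend, two-sided). P-values were adjusted by Benjamini-Hochberg over all transcripts tested, those with at least 1 RPKM in 3 libraries. The tissue fit was also run on simulated reads with no difference between days, so that check does not cover the spread between ages. The counts of transcripts over 2-fold apart carry no test.

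Named were: the 10 largest fold changes in each direction among called transcripts; the 10 with the largest smallest daily ratio in each direction among those apart on all 3 days; the 5 highest and 5 lowest ratios of each day, with a value of 0 ranked at 3 reads; Ubx, abd-A, Dll and dac; and listed genes over 2-fold apart on at least 2 days. Others are examples of the 14 lists (98 transcripts). The libraries compared, the lists and the rules were chosen with earlier results of these data known. Alternatives were other scalings, pseudocounts, filters, a day block and left-out libraries.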

Additional observations from a re-analysis of the deposited data

Results flagged for a closer look

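The tissue gap differed between days 4-6 and days 7-9, by the tissue by period term of limma, for 9 of 33 transcripts named by fold, repeat, limb role or list and tested (27.3%), against 19.2% of all transcripts tested. Most of the 33 were named for wide gaps in the same day 4-6 libraries that enter this term, which favours a change. The Snake-like proteases below come from a list chosen for its later level in pleuropodia. The share is therefore no independent evidence. Moving towards pleuropodia were SgreTa0004369 by 1.92, SgreTa0013495 by 5.51, SgreTa0013788 by 3.87, and the Snake-like serine proteases SgreTa0017715 by 5.04 and SgreTa0000783 by 4.01 log2 units (adjusted p = 0.00111, 1.75e-05, 0.00296, 0.00184 and 0.00106, limma). Moving towards legs were SgreTa0002943 by -2.14, dac (SgreTd0002755) by -2.71, SgreTa0005710 by -2.10 and Ubx (SgreTf0014307) by -3.11 log2 units (adjusted p = 0.00302, 0.0203, 0.0203 and 0.00044, limma). For SgreTa0013495 the log2 fold change was 2.44 at days 7-9, against -3.10 at days 4-6. For Ubx it was -2.14 at days 7-9, against 0.98 at days 4-6. SgreTa0013788 stood at 0.41 and SgreTa0002943 at -0.28 at days 7-9, against -3.46 and 1.88 at days 4-6. The part of the day 8-9 libraries, made at another centre, in these changes was not tested.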

How the results depend on the processing

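The count of 12 called transcripts was 10 on library totals, 12 with median-ratio factors or a pseudocount of 1, and 11 with no trend, but 7 with a pseudocount of 0.1, 3 with no filter, 1 with a minimum of 10 RPKM, 6 without day 4 in both tissues and 0 without day 5 or day 6. Leaving out 1 library gave 0 to 214. Deviations of same-day libraries from the 3-day mean of their tissue had r = 0.48, -0.06 and 0.34 at days 4, 5 and 6. A transcript that moves steadily with age is near that mean at day 5, so the r of day 5 cannot show whether the libraries pair. Between the day 4 pleuropodium and the day 6 leg r was -0.42, and between the day 6 pleuropodium and the day 4 leg -0.41. Same-day libraries share the age of the embryos. With day as a replicate block the count of called transcripts was 0, and with a day slope for each tissue, added after the data were seen, 512. The cause was not tested. The tissue by day term passed for 0 transcripts with other pseudocounts or library totals and for 83 with the minimum of 10 RPKM. The gap change to days 7-9 passed for 3481 transcripts with the stage as replicate block and for 3362 without the day 6 pleuropodium, both added later. At days 4, 5 and 6, a minimum of 1 RPKM gave 400, 1158 and 2830 transcripts over 2-fold apart and a minimum of 50 RPKM 18, 105 and 496. Transcripts apart on all 3 days numbered 153 at 1 RPKM, 12 at 50 RPKM, 91 over 1.5-fold and 15 over 4-fold. For Dll the log2 fold change of -0.51 was 0.20 without day 6 in both tissues and -0.92 to 0.16 without 1 library, positive without the day 6 pleuropodium. Of 519 values of 31 named transcripts under alternatives, 388 kept their direction and side of the threshold, 120 lost the call, 9 gained it and 2 turned round. The 388 include transcripts that were not called in the main fit. Only the 12 called transcripts could lose a call, so the 120 all fall on them. Each of the 12 stayed called in 4 (SgreTa0000608, of 16) to 10 (SgreTa0015122, of 17) of its alternatives. With 1 library per tissue and day, age and library cannot be told apart.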
